A study of Homo sapiens with 6 samples.

Results

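CONCR is a human long noncoding RNA, named DDX11-AS1 in the RefSeq gene table of assembly GRCh38.p14, where CONCR is listed as its synonym. Its neighbour in that table, DDX11, encodes a helicase needed to hold sister chromatids together. The results below describe the nucleotides U497 to A744 of the RNA, called the 3' segment, at single-nucleotide resolution. They were chosen by position, and number 248 of the 768 nucleotides in the deposited tables. The 24 nucleotides after them, 745 to 768, are the site of the reverse PCR primer and were left out, and the nucleotides from 1 to C496, called the upstream RNA below, served as the background. The ends of the segment follow no mark in the data: C496 and U497 had reactivities of 0.103 and 0.403, and A744 and C745 of 0.590 and 0.231.

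The RNA was made in the test tube with T7 polymerase, so the labels' cell line (NT2, a teratocarcinoma line) and wild-type genotype describe no cells that were probed. All 6 libraries came from RNA (3 pmol per reaction) held at 37 °C for 30 min in HEPES buffer (50 mM, pH 7.4) with 150 mM KCl and 5 mM MgCl2. In the 3 libraries of the 1M7 group the RNA then met 10 mM of the reagent 1M7 for 6 min at 37 °C, and in the 3 libraries of the DMSO group it met the solvent alone. Whether the replicates are separate transcriptions or separate foldings is not in the labels. The p-values below therefore measure the spread between these 6 libraries only, and that spread may be technical.

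An RNA strand folds back on itself into helices of paired bases, joined by loops, bulges and junctions, and the function of many long noncoding RNAs is thought to rest on a few such folded parts that proteins can bind. In SHAPE probing, 1M7 reacts with the 2'-hydroxyl of the ribose, faster where the nucleotide is flexible, which is most often where it is not held in a helix. Reverse transcription in manganese (the MaP method) reads past the adduct and leaves a mutation in the cDNA, so a high mutation rate with 1M7 over DMSO marks a flexible nucleotide. The reading is indirect: some unpaired nucleotides are rigid, and some pairs at helix ends open.

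The sequence of the segment is shown whole, because the reactive nucleotides can be read from it directly. Capitals mark the 41 nucleotides with a normalized reactivity above 0.85 in all 3 replicates.
3' segment, U497 to A744: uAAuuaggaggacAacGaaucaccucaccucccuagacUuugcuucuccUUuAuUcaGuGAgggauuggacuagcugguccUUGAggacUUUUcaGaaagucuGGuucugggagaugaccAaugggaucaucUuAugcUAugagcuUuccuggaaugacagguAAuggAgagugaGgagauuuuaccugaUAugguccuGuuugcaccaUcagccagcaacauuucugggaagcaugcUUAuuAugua

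No cytidine is among the capitals. The segment is rich in uridine, which makes up 30.6% of it against 19.2% of the upstream RNA. It is poorer in G and C, with 44.4% against 61.1%.

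Each nucleotide was covered deeply. The median effective depth (the reads usable for calling a mutation there) over the segment lay between 186650 and 254909 in the 1M7 libraries and between 260782 and 274578 in the DMSO libraries. Depth was lowest at the last nucleotide, A744, where it ranged from 64668 to 145453. Every nucleotide of the segment passed the filters on depth (at least 1000) and on the DMSO rate (at most 5%).

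1M7 raised the mutation rate of the segment in every library. The rate, mutations summed over the segment and divided by the summed effective depth, was 0.507%, 0.523% and 0.511% in 1M7 replicates 1, 2 and 3. In the DMSO replicates it was 0.178%, 0.175% and 0.194%. The groups did not overlap, and the ratio of their means was 2.82 (0.514% ± 0.00844 against 0.182% ± 0.0103, SD, n = 3 each). By a two-sided exact permutation test p was 0.1, and 3 against 3 libraries allow no smaller value.

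Both rates were lower in the segment than in the upstream RNA, where they were 0.606% ± 0.00674 with 1M7 and 0.235% ± 0.0175 with DMSO (SD, n = 3). The log2 ratio of the segment's rate to that of the upstream RNA was -0.24 ± 0.01 in the 1M7 libraries and -0.37 ± 0.03 in the DMSO libraries (SD, n = 3). The 1M7 libraries were the higher ones, by 0.13, with the smallest possible exact permutation p of 0.1. The difference was not seen within bases. When the log2 ratios were taken within each base and averaged, the difference was -0.01 (exact permutation p = 0.7).

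The size of the increase depended on the base. In the segment, the ratio of the summed 1M7 rate to the summed DMSO rate was 6.45 ± 0.149 at adenines, 3.08 ± 0.226 at uridines, 2.43 ± 0.189 at guanines and 1.48 ± 0.106 at cytidines (SD over 3 same-numbered pairs). The order was the same in each pair. The upstream RNA gave 6.27 ± 0.198, 2.82 ± 0.226, 2.04 ± 0.197 and 2.06 ± 0.191. The ratio of cytidines was thus lower in the segment in each of the 3 pairs, while that of guanines was higher, and the guanines' DMSO rate was 0.223% ± 0.0122 in the segment against 0.394% ± 0.0315 outside it (SD, n = 3).

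**Figure D1:**
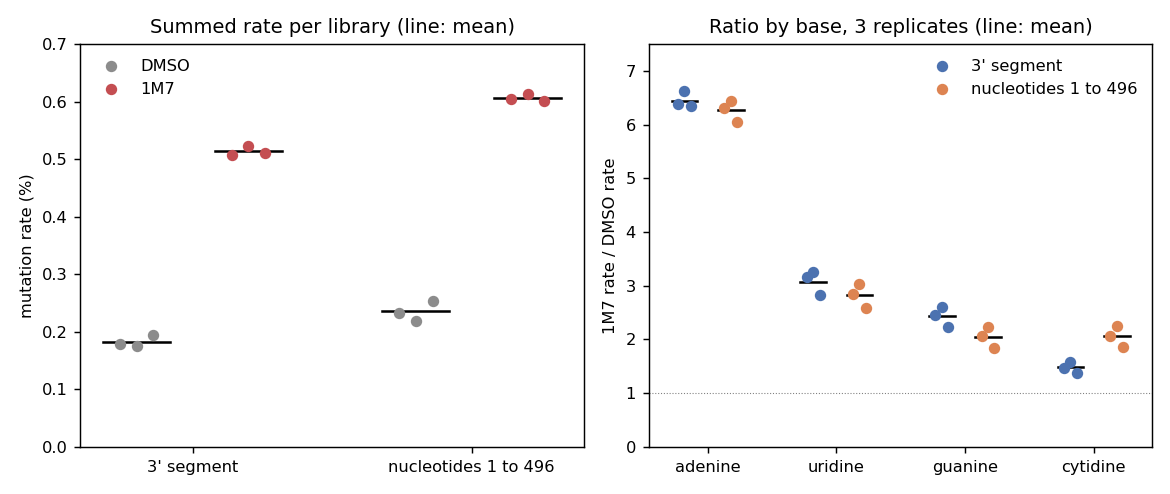
Left: mutation rate in percent (mutations over effective depth) of each library, for the 3' segment and for the upstream RNA, with 1 point per library and a line at the mean of 3. Right: ratio of the 1M7 rate to the DMSO rate by base, 1 point per same-numbered pair, line at the mean. The 1M7 points of the segment lie near 0.514% and the DMSO points near 0.182%, and the cytidines of the segment have the lowest ratios, around 1.48.

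Single nucleotides were tested with edgeR's quasi-likelihood test on mutation counts, fitted on all 742 nucleotides of the RNA that passed the filters and adjusted over them by Benjamini-Hochberg. In the segment 242 of 248 nucleotides had a higher rate with 1M7 and 0 a lower one, also 0 at an unadjusted p under 0.05 and 0 in DESeq2. Of all nucleotides tested 98.8% were called higher, so the count of the segment is close to its background. With TMM scaling, which takes the typical nucleotide as unchanged and shifts the median log2 ratio of all nucleotides from 1.23 to 0.0039, the split in the segment was 128 higher and 94 lower. The unscaled median ratio was 2.82 in the segment, 2.18 in the upstream RNA and 2.35 over all tested. All 3 libraries with 1M7 lay above all 3 with DMSO at 242 nucleotides of the segment. These are not the same 242 as the ones called, since C577 was among them and missed the threshold. The count was not taken in the upstream RNA, so it shows nothing particular to the segment.

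The 6 that missed the threshold were C545, C577, C641, C711, C714 and U743. Of these, 5 are cytidines. They fall into 2 kinds. C545, C577 and C641 had high rates in both groups, described below. C711, C714 and U743 had almost no reactivity, with means of 0.0101 ± 0.00304, 0.0158 ± 0.0142 and 0.00518 ± 0.0293 (SD, n = 3), the 3 lowest means of the segment. C714 passed with the replicate number as a block (edgeR adjusted p = 0.0480, log2 ratio 0.25), without 1M7 replicate 2 (0.32, 0.0323) and without DMSO replicate 3 (0.39, 0.00209). C641 passed without 1M7 replicate 1 (0.18, edgeR adjusted p = 0.0153) or without DMSO replicate 3 (0.11, edgeR adjusted p = 0.0392), and C577 without DMSO replicate 3 (0.13, edgeR adjusted p = 0.00680). Fisher's exact test on counts summed over replicates, which leaves out the spread between libraries, called 246 nucleotides, with C577 (adjusted p = 4.23e-12), C641 (1.5e-11), C545 (0.0180) and C714 (0.0107) among them.

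The normalized reactivity that the authors deposited (the 1M7 rate minus the DMSO rate, times a factor per replicate) gives the shape of the profile. A737 was the most reactive nucleotide of the segment and ranked 8 in the whole measured RNA. Its reactivity was 3.73, 3.39 and 3.70 in replicates 1, 2 and 3. Its mutation rate was 2.47%, 2.36% and 2.36% in the 1M7 libraries and 0.0779%, 0.0845% and 0.0971% in the DMSO libraries. These groups are far apart, and the fitted log2 ratio is 4.79 with a SE of 0.10 (adjusted p = 4.08e-25 in edgeR).

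U687 and A688 formed the next peak, and both neighbours were high in every replicate. U687 had reactivities of 2.34, 2.31 and 2.6, with rates of 1.62%, 1.68% and 1.74% under 1M7 against 0.123%, 0.120% and 0.153% in DMSO. A688 had 1.98, 1.98 and 2.11. Its rate rose 35.1-fold, from a DMSO rate of 0.0380% ± 0.00747 (SD, n = 3).

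A549 (2.37, 2.33 and 2.53), A510 (2.24, 2.21 and 2.39) and A740 (2.11, 2.06 and 2.16) followed. A631 had a reactivity of 2.09 ± 0.148, G592 of 2.05 ± 0.136, G556 of 1.90 ± 0.117, A636 of 1.86 ± 0.124, A617 of 1.76 ± 0.181 and U551 of 1.70 ± 0.137 (SD, n = 3). A636 showed the largest fold rise of the segment, 40.5-fold, from 0.0302% to 1.22%. These 12 are 8 adenines, 2 guanines and 2 uridines, where adenines make up 25% of the segment. The structure predicted from sequence alone left 6 of the 12 unpaired, and 84 of all 248 nucleotides. The errors are small beside the values, but replicate 3 was the highest in 11 of the 12 and replicate 2 the lowest in 10. Over all 248 nucleotides replicate 3 was highest at 113 and replicate 2 at 80.

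The surroundings of 6 of the most reactive adenines are given because they share a feature, with the adenine in capitals: each follows a uridine.
A737 (732 to 742): ugcuuAuuaug
A549 (544 to 554): ccuuuAuucag
A740 (U735 to A744): uuauuAugua
A631 (626 to 636): aucuuAugcua
A688 (683 to 693): cugauAugguc
A636 (631 to 641): augcuAugagc

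Of the 8 adenines among the 12, 6 follow a uridine, and this prompted a look at all adenines, chosen after the values were seen and so given without a test. The 13 adenines after a uridine in the segment had a median reactivity of 1.11, 1.04 and 1.16 in replicates 1, 2 and 3. The 49 other adenines had medians of 0.360, 0.363 and 0.407. The medians were 0.504 ± 0.0391 after adenine, 0.415 ± 0.0177 after guanine and 0.243 ± 0.0262 after cytidine (SD, n = 3; 10, 24 and 15 adenines). The upstream RNA showed the same first and last place, with 0.932 ± 0.0421 after uridine (12 adenines) and 0.317 ± 0.0268 after cytidine (28). The difference within the segment kept its direction without subtraction of the DMSO rate (0.68) and on the ratio scale (0.51).

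The DMSO libraries had peaks of their own. C577 had the highest rate, 2.34%, 2.39% and 2.51% in DMSO replicates 1, 2 and 3, and 2.54%, 2.71% and 2.53% with 1M7. The 1M7 and DMSO values nearly touch, and the log2 ratio was 0.10 ± 0.06 (SE, edgeR adjusted p = 0.0874). C641 had 1.34% ± 0.0131 in DMSO and 1.45% ± 0.122 with 1M7, and C545 had 1.05% ± 0.0160 and 1.09% ± 0.0214 (SD, n = 3). C585 rose from 1.33% ± 0.0313 to 1.5% ± 0.0913 (log2 ratio 0.18 ± 0.07, SE, edgeR adjusted p = 0.0116), a call that was lost with the replicate number as a block (edgeR adjusted p = 0.0627) and without 1M7 replicate 2 (0.0850). U586 was the only non-cytidine among these 5, and it rose from 1.02% ± 0.0436 to 1.90% ± 0.0723 (log2 ratio 0.89 ± 0.07, SE, edgeR adjusted p = 8.76e-13).

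The 4 cytidines are printed with 6 nucleotides on each side, since they too share their context (the cytidine in capitals).
C577 (571 to 583): cuggucCuugagg
C641 (635 to 647): uaugagCuuuccu
C585 (579 to 591): ugaggaCuuuuca
C545 (539 to 551): cuucucCuuuauu

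Each stands directly before a run of at least 2 uridines. All 8 such cytidines of the segment had a median DMSO rate of 0.987%, 0.989% and 1.03% in DMSO replicates 1, 2 and 3, ranging from 0.199% at C628 to 2.41% at C577. The 41 other cytidines had medians of 0.0681%, 0.0649% and 0.0769%. The pattern was noticed in these values, so no test is given. In the upstream RNA, which did not prompt it, the 4 such cytidines had a median of 0.247% ± 0.0242 and the 150 others 0.0899% ± 0.00679 (SD, n = 3). The direction of the medians was the same there and the gap smaller. The highest single rate there was at a cytidine without this context, 1.49% against at most 0.623% before uridines. The 4 highest cytidines alone held 49.8% ± 1.14 of all cytidine mutations of the segment in DMSO. Without them, the ratio of the summed cytidine rates rose from 1.48 to 1.84 ± 0.183 (SD, n = 3).

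The reactivity differed between replicates most at a few nucleotides with high DMSO rates. C734, also before a pair of uridines, had reactivities of 0.541, 0.772 and -0.266, the widest range of the segment. Its DMSO rate was 0.726%, 0.639% and 0.983%, and its 1M7 rate 1.07%, 1.16% and 0.821%, so that replicate 3 alone lay lower with 1M7. Its log2 ratio was 0.38 ± 0.12 (SE, edgeR adjusted p = 0.00363), and the call was lost in DESeq2 (adjusted p = 0.114), without DMSO replicate 1 (edgeR adjusted p = 0.0658) and without 1M7 replicate 2 (edgeR adjusted p = 0.0611). U521 (0.297, 0.0290 and 0.498), C577 (0.307, 0.477 and 0.0330), C641 (-0.0652, 0.272 and 0.314) and U526 (1.2, 0.839 and 1.02) had the next widest ranges. Elsewhere the spread was small, with a median SD over replicates of 0.0337 beside a median deposited standard error of 0.0232. The SD exceeded the largest of the 3 deposited errors at 168 of 248 nucleotides. Across the segment the profiles of replicates 1 and 2 had a Pearson r of 0.990. The profile of replicate 3 had 0.984 with replicate 1 and 0.974 with replicate 2. These are correlations over 248 nucleotides of the same libraries, which are not independent.

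**Figure D2:**
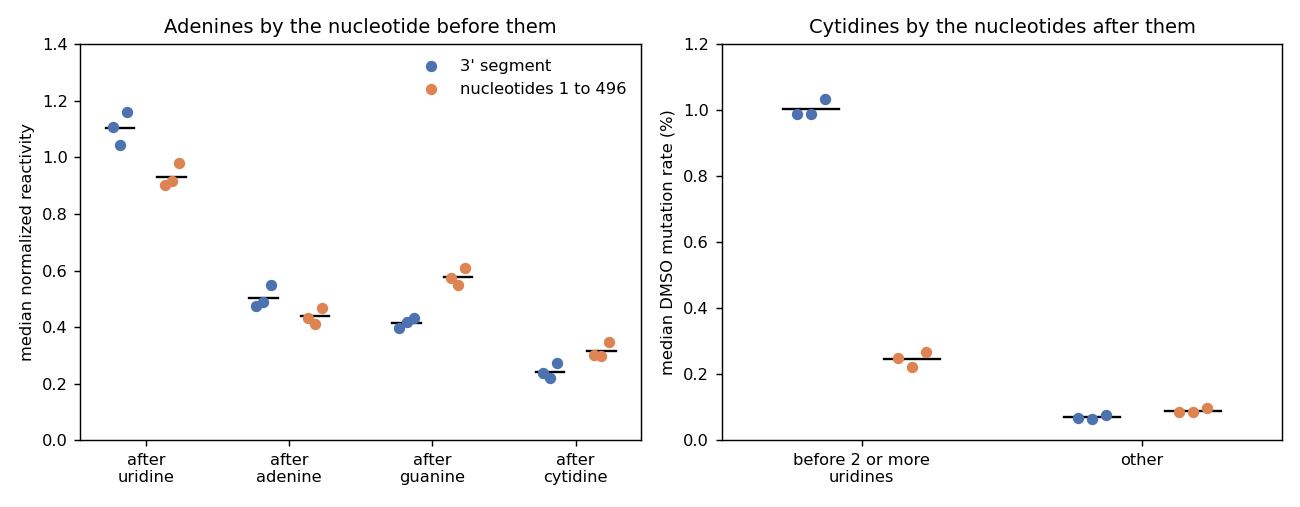
Left: median normalized reactivity of adenines by the nucleotide before them, in the 3' segment and in the upstream RNA. Right: median DMSO mutation rate in percent of cytidines that stand before 2 or more uridines and of other cytidines. Each point is 1 replicate and each line the mean of 3; adenines after uridine lie between 1.04 and 1.16 in the segment, and the cytidines before uridines near 1.00%.

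By class, 54.8% ± 1.76 of the segment's nucleotides had a reactivity below 0.4, 27.7% ± 1.53 lay from 0.4 to 0.85 and 17.5% ± 0.233 lay above (SD, n = 3). The upstream RNA had 57.9% ± 2.29, 22.8% ± 1.94 and 19.3% ± 0.420 in these classes. At 223 nucleotides of the segment (89.9%) the 3 replicates fell into 1 class, against 86.5% upstream. Very high values were rarer than elsewhere. The 90th percentile of the reactivity was 1.15, 1.2 and 1.19 in the segment and 1.34, 1.36 and 1.43 in the upstream RNA, lower in the segment in each replicate (exact sign-flip permutation p = 0.25, the smallest that 3 replicates allow). The segment held 19 of the 74 most reactive nucleotides of the RNA, 25.7% for 33.3% of the measured length.

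The typical nucleotide did not follow that order. The median was 0.344, 0.363 and 0.329 in the segment and 0.327, 0.339 and 0.289 in the upstream RNA, a difference of 0.0269 ± 0.0111 (SD, n = 3, exact sign-flip permutation p = 0.25). The sign was negative for means in place of medians (-0.0594), without DMSO subtraction (-0.0511) and with each base scaled to its own median (-0.0902). Base by base, the median at adenines was 0.455 ± 0.0242 in the segment and 0.499 ± 0.0318 outside, and at uridines 0.479 ± 0.00618 and 0.547 ± 0.0257. At cytidines it was 0.131 ± 0.0182 and 0.164 ± 0.0199, and at guanines 0.343 ± 0.0520 and 0.352 ± 0.0591 (SD, n = 3). Adenines, uridines and cytidines were lower in the segment in all 3 replicates, guanines in 1. Of the 49 cytidines 48 were below 0.4 and 0 above 0.85.

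**Figure D3:**
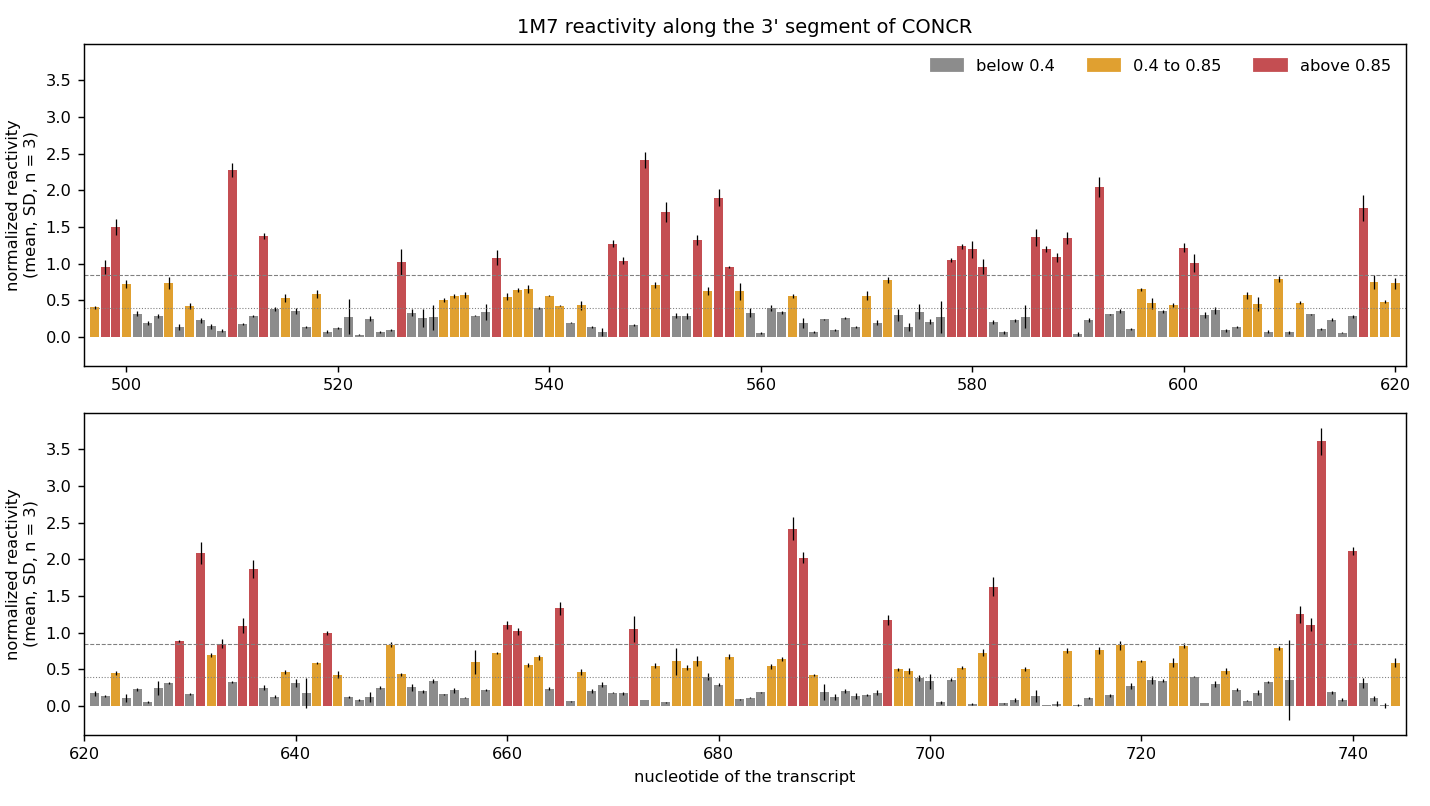
Normalized reactivity of each nucleotide of the 3' segment against its position in the transcript, as the mean of 3 replicates with SD bars. Grey bars lie below 0.4, yellow bars from 0.4 to 0.85 and red bars above 0.85; A737 stands highest at 3.61, and C734 has the widest error bar.

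The reactivity was uneven along the segment. In 8 tiles of 31 nucleotides, that of 528 to 558 had medians of 0.554, 0.567 and 0.528, above every value of the other 7 tiles. It held 11 nucleotides below 0.4, against 17 to 20 in the other tiles, and 8 above 0.85, as many as the tile of 559 to 589. The first tile, from U497 to 527, had 0.298 ± 0.0113 and the fifth, 621 to 651, had 0.307 ± 0.00640 (SD, n = 3). The seventh, 683 to 713, had 0.360, 0.331 and 0.221, so that replicate 3 alone was low. The other tiles had means between 0.312 and 0.352, and their replicate values overlapped. The tile of high median is also the one where the paired share differs most between the predicted structures: the sequence-only structure paired 74.2% of it and the structure directed by the reactivities 19.4%. The directed structure penalizes pairs at reactive nucleotides, so a loss of pairs in a reactive tile was favoured in advance.

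**Figure D4:**
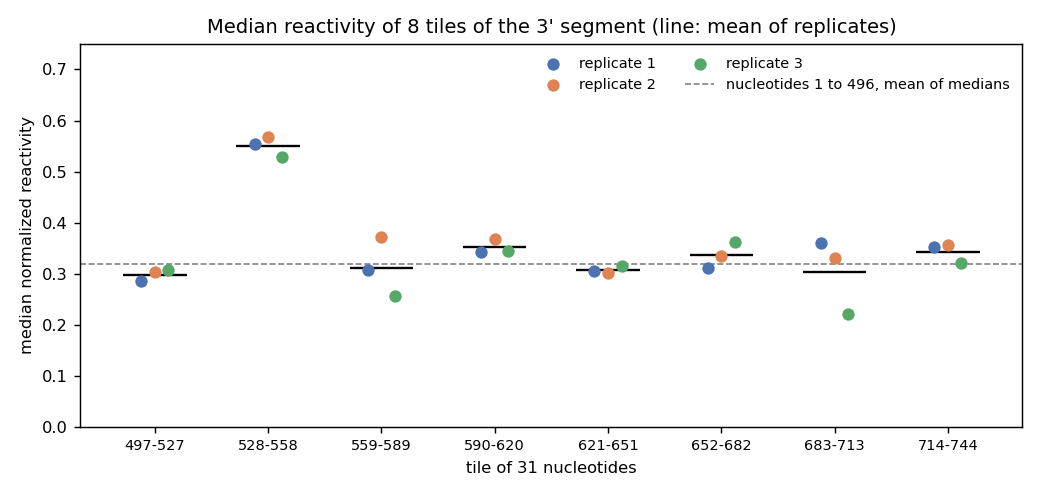
Median normalized reactivity in 8 tiles of 31 nucleotides of the 3' segment, 1 point per replicate and a black line at the mean of 3; the dashed line is the value of the upstream RNA, 0.318. Tile 528-558 lies at 0.550 and all other tiles between 0.298 and 0.352.

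A few stretches stood out. The longest with a reactivity under 0.4 in every replicate were each 6 nucleotides, shown here in capitals with their flanks.
564 to 569 (in 558 to 575): gggauuGGACUAgcuggu
651 to 656 (in 645 to 662): ccuggaAUGACAgguaau
690 to 695 (in 684 to 701): ugauauGGUCCUguuugc
Their mean reactivities were 0.162 ± 0.0172, 0.212 ± 0.0219 and 0.161 ± 0.0368 (SD, n = 3). GGACUA and GGUCCU were paired over nearly their whole length in the predicted structures, while AUGACA lay mostly in a hairpin loop of 6 nucleotides, so low reactivity was not limited to predicted helices.

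Runs of at least 3 nucleotides above 0.85 were also 3 in number.
578 to 581 (in 572 to 587): ugguccUUGAggacuu
586 to 589 (in 580 to 595): gaggacUUUUcagaaa
735 to 737 (in 729 to 743): gcaugcUUAuuaugu
UUGA had a mean reactivity of 1.11, 1.05 and 1.17 in replicates 1, 2 and 3, with single values of 0.960 to 1.24. UUUU had 1.24, 1.24 and 1.26. Both lie close together, with the unreactive GGAC between them. UUA reached 2.01, 1.87 and 2.09 through A737.

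The reactivities were then set against the minimum free energy structure computed from the whole sequence, which used no reactivity. It paired 66.1% of the segment: 126 nucleotides with partners in the segment, 28 with the upstream RNA and 10 with the primer site. Unpaired nucleotides had a median reactivity of 0.459, 0.448 and 0.480 and paired ones of 0.307, 0.313 and 0.276. The difference was 0.164 ± 0.0360 (SD, n = 3), positive in all replicates, with the smallest possible exact sign-flip permutation p of 0.25. In the upstream RNA it was 0.152 ± 0.0314, and the 2 parts differed by 0.0122 ± 0.0260 (exact sign-flip permutation p = 0.5), less than the spread.

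The gap differed between bases. Adenines had 0.584 ± 0.0539 where unpaired and 0.356 ± 0.0216 where paired, and guanines 0.536 ± 0.0318 and 0.308 ± 0.0505. Uridines had 0.482 ± 0.00910 and 0.464 ± 0.0102, nearly equal values, and cytidines 0.182 ± 0.0193 and 0.126 ± 0.0136 (SD, n = 3). The kind of pair also went with the level. Guanines predicted to pair with cytidine had a median of 0.249 ± 0.0174 (39 nucleotides), and the 10 guanines predicted to pair with uridine had 0.917 ± 0.0829. Uridines had 0.429 ± 0.00991 against adenine (36) and 0.604 ± 0.0214 against guanine (10). Those guanines in predicted wobble pairs were more reactive than unpaired guanines of the same structure. In the model described next, which was built from the reactivities, the order was the reverse. There guanines paired with uridine had 0.562 ± 0.0579 (5) and unpaired guanines 0.792 ± 0.0340 (14; SD, n = 3). The 10 guanines in sequence-only wobble pairs include G554, G556, G558, G582, G592 and G600, which lost those pairs in that model.

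Adding the mean profile as pseudo-energies (the Deigan method) gave a model with 50 base pairs inside the segment, against 63 in the sequence-only structure, and 29 pairs were common to both. Of the 50, 49 lie within nucleotides 513 to 679, called the domain below. In this model the domain has 0 nucleotides paired outside it. That count was fixed in advance, because the folding allows no crossing pairs and a stem closes the domain. Its limits were read from the models. All 50 pairs were in the models of the 3 single replicates. When the 248 nucleotides were folded without the rest of the RNA, 49 of the 50 formed again, in the mean-profile model and in all 3 replicate models. Within it 163 of 167 nucleotides had the same state in all 3 replicate models, and outside it 45 of 81.

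The domain is closed by a stem whose arms lie 134 nucleotides apart. Capitals mark paired nucleotides.
5' arm, 513 to 528: gAAUCaCCUCACCUCC
3' arm, 663 to 679: GGAGaGUGAGGaGAUUu
The middle helix, 519 to 524 with 668 to 673, had median reactivities of 0.161 ± 0.0201 (SD, n = 3), and its pairs had a mean probability of 0.999 from sequence alone and 0.983 with the mean profile. The inner helix, 525 to 528 with 663 to 666, had 0.309 ± 0.0537 and probabilities of 0.989 and 0.837. The outer helix, 514 to 517 with 675 to 678, had 0.433 ± 0.00882 and 0.977 and 0.873. The first 2 were found under all 9 other settings for background, folding and replicates, and the outer one under 7. All 9 settings were directed by the reactivities. Single nucleotides within the stem were reactive all the same. G672 of the middle helix had 1.05 ± 0.180 and U526 of the inner helix 1.02 ± 0.182 (SD, n = 3). The highest value of the inner helix was 1.33.

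The interior of the domain is where the reactivities changed the prediction. From sequence alone, nucleotides 529 to 601 formed a 9-pair helix (529 to 537 with 593 to 601) that carried 3 hairpins, with helices in capitals.
Sequence only, 529 to 601: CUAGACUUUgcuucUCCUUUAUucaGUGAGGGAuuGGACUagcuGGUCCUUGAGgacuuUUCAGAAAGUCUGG
The reactivities in 3 of these 4 helices were high for paired nucleotides. The median was 0.481 ± 0.0194 in the 9-pair helix, 0.616 ± 0.0238 in 543 to 550 with 554 to 561, and 1.06 ± 0.046 in 578 to 582 with 588 to 592, against 0.298 at all paired nucleotides of the segment. It was 0.204 ± 0.0566 in 564 to 568 with 573 to 577 (SD, n = 3). None of the 4 was in any replicate model or under any of the 9 other settings, all of which were directed by the reactivities. Without reactivities, all 4 also formed when the segment was folded alone.

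In their place the model held 1 long arm with helices of 4, 5, 5 and 4 pairs and shorter ones, capitals again marking the helices of at least 4 pairs.
Mean-profile model, 543 to 609: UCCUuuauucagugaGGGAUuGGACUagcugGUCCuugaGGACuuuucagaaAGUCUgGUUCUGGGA
Its tip is the hairpin guccUUGAggac (574 to 585), in which the loop UUGA is reactive over all 4 nucleotides and the helix has a median of 0.203 ± 0.0306 (SD, n = 3). UUUU forms a bulge on 1 side between the tip helix and the pairs of 571 to 573 with 590 to 592, and GGACU (564 to 568) pairs with AGUCU (595 to 599) at a median of 0.248 ± 0.00593. Mean pair probabilities of the latter rose from 0.169 to 0.880 and of the tip helix from 0.318 to 0.908. The helix 558 to 562 with 601 to 605 reached only 0.468 and the helix 543 to 546 with 606 to 609 only 0.265, so the lower arm was weakly determined even in the model that holds it. The tip helix and that of GGACU were found under all 9 other settings, the other 2 helices under 8 and 7. These settings, too, were directed by the reactivities. Single paired nucleotides of the arm were reactive all the same: G592, paired with C571, had 2.05 ± 0.136, U546 had 1.27 ± 0.0470 and G601 had 1.01 ± 0.125 (SD, n = 3). As the model was built from these reactivities, its fit to them is no separate evidence.

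Within 529 to 609 no nucleotide kept its partner between both structures. The 26 nucleotides that were paired only in the sequence-only structure had a median reactivity of 0.815 ± 0.0355, and the 12 paired only in the mean-profile model had 0.292 ± 0.0155 (SD, n = 3). Because the model penalizes pairs at reactive nucleotides, this gap was favoured in advance and does not decide between the structures. The 30 paired in both with different partners had 0.275 ± 0.0396, and the reactivity of such nucleotides does not tell one partner from the other.

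**Figure D5:**
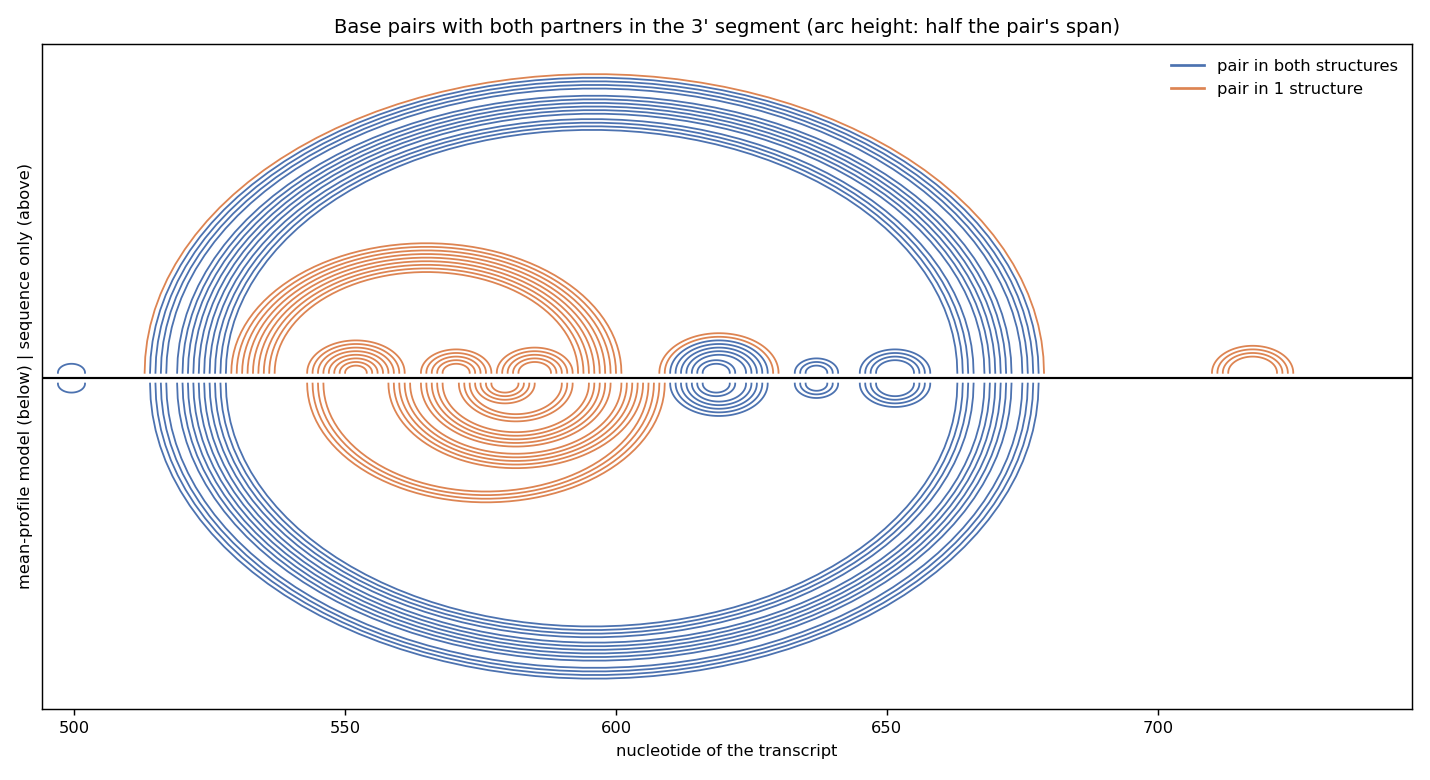
Base pairs with both partners in the 3' segment, drawn as arcs over the position in the transcript, with the sequence-only structure above the line and the mean-profile model below it. Blue pairs are in both structures (29) and orange pairs in 1 of them; the closing stem and the 3 hairpins at 610 to 658 are shared, and the pairs between 529 and 609 are not.

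On the 3' side of the domain's interior, 3 hairpins were common to both structures, printed with the loop in capitals.
615 to 622: ccAAUGgg
633 to 641: gcuAUGagc
645 to 658: ccugGAAUGAcagg
The loop AAUG sits on a longer stem that includes GAUGA (610 to 614) with UCAUC (624 to 628), with a helix median of 0.209 ± 0.0319. Its loop had a mean reactivity of 0.929 ± 0.0638, and A617 within it 1.76. The loop AUG had 0.744 ± 0.0573, mostly from A636 with 1.86, while one of its nucleotides had 0.122. The 6-nucleotide loop GAAUGA had 0.368 ± 0.0170 (SD, n = 3), low for a loop, above a stem at 0.172 ± 0.00869. Both helices of at least 4 pairs among these hairpins were in all 3 replicate models and under all 9 other settings.

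Outside the domain 1 more hairpin was common to both structures, cuAAUUag (C496 to G503), whose loop had a mean reactivity of 0.870 ± 0.0665 (SD, n = 3) with a range of 0.316 to 1.5. Downstream of the domain the models differed. The mean-profile model joined 690 to 713 to nucleotides 424 to 445 by 4 helices, with mean pair probabilities between 0.525 and 0.577, and these were in the replicate 1 model but not whole in those of replicates 2 and 3. Of the 9 other settings 5 held the helices to 424 to 440 and 6 the helix to 442 to 445. The helix to 442 to 445 was also in the sequence-only structure. The hairpin ccagCAACAUUUcugg (710 to 725) replaced the helix to 424 to 428 there and in the models of replicates 2 and 3. Its probability was 0.402 ± 0.0508 over the 3 replicate models. It had a median of 0.371 ± 0.0102 in its helix and a mean of 0.385 ± 0.0104 in its loop (SD, n = 3). Nucleotides 729 to 734 were joined to the 5' end (3 to 8) in all 3 replicate models, at a probability of 0.983 ± 0.00392 (SD, n = 3), and 738 to 743 to the primer site. The highest mean reactivity among the paired nucleotides of the helix to the 5' end was 2.04. That helix also holds C734, the nucleotide of widest range over replicates. The helix to the 5' end was found under 6 of the 9 other settings: it was lost on the ratio scale, where 1 to 4 paired with 729 to 732 instead, and could not form with the segment folded alone or with a span of at most 300 nucleotides. A737 falls in the gap between these 2 helices. A740 had 2.11 although the second of them pairs it, and the primer site itself gave no reactivity to the folding.

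Guanines in runs of 2 or more had a median reactivity of 0.268 ± 0.0256 (34 nucleotides) in the segment and single guanines 0.539 ± 0.0363 (27; SD, n = 3), higher in each replicate, a difference that was not tested. Runs of guanines can stack into G-quadruplexes, and the segment holds 2 stretches with at least 4 runs of 2 or more guanines and loops of 1 to 7 nucleotides (searched on the RNA strand, runs in capitals).
558 to 583: GGGauuGGacuagcuGGuccuugaGG
648 to 673: GGaaugacaGGuaauGGagagugaGG
In the first the guanines of the runs had a median of 0.171 ± 0.0522 and the other nucleotides 0.368 ± 0.0560. In the second the order was the other way, with 0.412 ± 0.0676 and 0.271 ± 0.0287 (SD, n = 3). Both stretches also overlap helices of the models above, and a match of letters does not say that the fold forms.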

How the data were processed

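SHAPE-MaP tables of 3 replicates were read, each with a 1M7 and a DMSO library. Per the file headers, the deposited mutation and depth values are raw counts for each nucleotide. The mutation rate is a deposited fraction (mutations over effective depth). The normalized reactivity is a score that the authors deposited, the rate difference times a factor per table (156.0, 148.7 and 164.0). The names of the aligner and mutation caller were not given in the sources used here. Each table has 4 columns for a denatured control, which are empty, and 2 for unscaled standard errors; neither kind was used.

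Rates were tested with edgeR 4.0.16 (R 4.3.3; DESeq2 1.42.0 as alternative) with the log effective depth as offset. The SE given with a log2 ratio is approximate: it is the absolute log2 ratio divided by the square root of the test's F statistic. Library and replicate values were tested by two-sided exact permutation. Structures came from ViennaRNA 2.7.2 at 37 °C (Deigan slope 1.8, intercept -0.6, negative reactivities set to 0, no data at the primer site). SDs of medians are over replicates.

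The segment is defined by position, but it and the lists were chosen with earlier results of these data known. Nucleotides named were the 12 most reactive, the 5 of highest DMSO rate, the 5 of widest range and all that missed the threshold. Regions named were 8 tiles, stretches and helices of at least 4 pairs; the domain 513 to 679, adenines after uridine and cytidines before uridines were chosen after the values were seen. Tests were tried on simulated counts.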

Additional observations from a re-analysis of the deposited data

How the results depend on the processing

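Of the 6 overall results, 2 were reversed under at least 1 alternative and 1, the count of nucleotides, fell strongly under another. Leaving out libraries gave 240 to 244 nucleotides with a higher rate, 50 to 51 shared base pairs, a log2 ratio of the segment's rate of 1.47 to 1.54, a difference from the rest of 0.118 to 0.148 (log2), a difference of medians of 0.0208 to 0.0317 and an unpaired-minus-paired difference of 0.144 to 0.178. With the replicate number as a block 242 nucleotides were higher, 241 of them as in the fit without it; besides C585 and C714 the block changed no call of a named nucleotide. Same-numbered libraries did not deviate together from their group means over the nucleotides tested (r of 0.0148, -0.0738 and -0.115). That cannot tell whether they share a transcription or a folding, which the labels do not give, and the deposited reactivity pairs them by number. Averaging within bases turned the segment-over-rest difference to -0.0143. The difference of medians became -0.0511 without DMSO subtraction, -0.0902 after division by base medians and -0.0594 for means. TMM scaling shifted the median log2 ratio of all nucleotides from 1.23 to 0.0039 and left 128 nucleotides higher and 94 lower than the typical increase. Under it the log2 ratios were -1.13 at C577, -1.12 at C641, -1.06 at C585, -1.18 at C545, -0.34 at U586, -0.85 at C734, -0.96 at U521, -0.37 at U526, -1.04 at C711, -0.98 at C714 and -1.22 at U743. Without 1 library U743 lay between -0.0732 (without 1M7 replicate 1) and 0.114 (without 1M7 replicate 2), and at -0.032 without DMSO replicate 2. Fewer pairs (38) were shared by all replicate models without DMSO subtraction, where 34 of the 50 pairs remained. Depth was lowest at the last nucleotides. The causes of these changes were not tested. The p-values of permutation tests over 3 libraries or replicates cannot fall below 0.1 and 0.25.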
